A study of Mus musculus with 24 samples.

Results

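The variable (V) segments of the mouse immunoglobulin heavy chain locus were followed across 8 groups of blood stem and progenitor libraries. Members were all rows of the count table whose gene name begins with Ighv and a number, which gave 183 of 56748 genes. The annotation places all 183 on chromosome 12, calls 113 of them V genes and 70 V pseudogenes, and their names fall into 16 families. The study sequenced 24 RNA libraries from cells sorted out of mouse bone marrow, although the tissue field reads blood. They form 8 groups of 3 libraries by genotype label (WT or KO) and by population label, which is HSC for haematopoietic stem cells and MPP1, MPP2 or MPP4 for multipotent progenitors. All animals, WT included, had been given tamoxifen. The labels name neither the deleted gene nor a Cre driver, and they give no age, strain or sort gate. The labels do not say that libraries of a group come from different animals, and p-values then reflect the scatter among these libraries alone, part of which may be technical. The comparisons below are those the design implies.

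A heavy chain gene is assembled in a developing B cell by joining 1 V segment to a D and a J segment, so that the V segment's promoter comes under the control of the enhancers of the locus. A cell then transcribes mainly its own joined V segment, spliced to a constant region that is Ighm at first and another after class switching, and its daughter cells carry the same join. Before joining, many V segments are transcribed at low levels from their unjoined promoters. The mix of V segments in the RNA of a population therefore describes which joined or unjoined segments its cells transcribe, and stem cells and multipotent progenitors are upstream of the stage at which V to DJ joining is completed.

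Sequences are shown first for the 4 segments that lead the libraries in which most V counts were found. They are the last 300 bases of the reference transcripts (GENCODE M21, build GRCm38), which end at the edge where a V segment is joined. Capitals mark the codon of the cysteine that closes the third framework region. It was found as the TGN of the motif TANTNNTGN within the last 40 bases, on the coding strand only, and 149 of the 183 members (81.4%) hold that motif there, 108 of 113 V genes (95.6%) and 41 of 70 pseudogenes (58.6%).
Ighv7-1: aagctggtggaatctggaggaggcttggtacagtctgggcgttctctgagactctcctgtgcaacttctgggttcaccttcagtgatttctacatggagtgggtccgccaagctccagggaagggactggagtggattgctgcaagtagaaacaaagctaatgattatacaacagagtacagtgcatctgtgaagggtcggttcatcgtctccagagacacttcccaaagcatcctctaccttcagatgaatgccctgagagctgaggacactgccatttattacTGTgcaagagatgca
Ighv11-2: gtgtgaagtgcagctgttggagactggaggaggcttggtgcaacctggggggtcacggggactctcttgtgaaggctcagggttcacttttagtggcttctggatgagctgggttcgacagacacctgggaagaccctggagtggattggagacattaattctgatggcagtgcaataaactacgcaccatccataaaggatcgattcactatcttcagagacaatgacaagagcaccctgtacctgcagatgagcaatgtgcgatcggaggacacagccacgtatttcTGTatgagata
Ighv3-5: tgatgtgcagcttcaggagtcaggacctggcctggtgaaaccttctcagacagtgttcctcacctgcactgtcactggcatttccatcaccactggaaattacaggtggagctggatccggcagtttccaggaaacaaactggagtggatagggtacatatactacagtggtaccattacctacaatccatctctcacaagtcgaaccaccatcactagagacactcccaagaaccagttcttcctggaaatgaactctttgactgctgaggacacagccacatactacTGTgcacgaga
Ighv5-16: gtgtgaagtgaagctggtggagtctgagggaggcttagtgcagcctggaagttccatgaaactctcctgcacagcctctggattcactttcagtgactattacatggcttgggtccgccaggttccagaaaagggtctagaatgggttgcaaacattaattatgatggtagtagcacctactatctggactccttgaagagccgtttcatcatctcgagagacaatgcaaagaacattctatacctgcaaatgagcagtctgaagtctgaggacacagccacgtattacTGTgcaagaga

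Ighv7-1 is the S107 family segment best known from antibodies to phosphorylcholine, and Ighv11-2 is known from B-1 cell antibodies to phosphatidylcholine. The transcripts of these 2 segments were 69.1% identical over 353 aligned bases, so a read of one is unlikely to be counted for the other. Close copies exist for other segments. Of the 46 segments with enough counts to test, 8 have another member at 97% identity or more, Ighv11-2 among them (98.9% with Ighv11-1), and 0 have one at 99%. For those 8, which include Ighv1-15, Ighv2-2, Ighv1-50 and Ighv14-2, how reads were split between copies is uncertain.

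The labels were checked on marker genes before the segments were read. Total counts ran from 2540511 to 3807003 per library. Ddx6, which is the gene deleted in this study from general knowledge of it and is not named in the labels, had 154 to 319 counts in WT and 194 to 308 in KO-labelled libraries. It was not lower in any population, with log2 differences of 0.29 ± 0.19 (SE) in HSC, 0.61 ± 0.18 in MPP1, 0.11 ± 0.18 in MPP2 and 0.29 ± 0.19 in MPP4, of which that in MPP1 passed edgeR's test (adjusted p = 0.0211). The deleted exons are not given, so counts over the whole gene may not see a deletion, and KO is used here as a label. The libraries labelled MPP2 had the higher Flt3, a marker of lymphoid-primed progenitors usually named MPP4, at 1132 CPM (counts scaled to a common library total) in WT and 542 in KO, against 64.2 and 84.1 in those labelled MPP4. Flt3 was also at 421 CPM in WT MPP1 and at 575 in KO MPP1, above the 542 of KO MPP2. Gata1, a marker of megakaryocyte and erythroid priming usually tied to MPP2, was at 2.82 and 4.33 CPM in the libraries labelled MPP2 and at 40.9 and 42.0 in those labelled MPP4. The MPP2 and MPP4 labels thus run against these markers, and both names are used below only as labels. Olfactory and vomeronasal receptor genes, silent in blood, gave the level of counts that arise without expression: by that measure 11.6 to 59.7 of the Ighv counts of a library were expected from background.

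Heavy chain V segments were scarce in stem cells and WT MPP1 and more abundant in the libraries labelled MPP2 and MPP4. Summed over the 183 members, the 3 libraries had 181, 185 and 244 counts in WT HSC, 166, 192 and 199 in WT MPP1, 1047, 1166 and 1163 in WT MPP2 and 2389, 2297 and 2199 in WT MPP4. In the KO-labelled libraries they had 109, 67 and 83 counts in HSC, 566, 784 and 671 in MPP1, 14784, 16955 and 14587 in MPP2 and 2679, 2831 and 2737 in MPP4. In raw counts WT and KO did not overlap in any population, with KO below WT in HSC and above it in the 3 progenitor populations. In CPM the means (± SD, n = 3) were 55.9 ± 11.5 in WT HSC, 52.7 ± 3.70 in WT MPP1, 343 ± 23.2 in WT MPP2 and 691 ± 62.3 in WT MPP4. The KO-labelled means were 28.9 ± 8.01, 203 ± 18.9, 5535 ± 156 and 809 ± 57.7 in the same order. The highest, KO MPP2, was 16.1 times WT MPP2, a log2 ratio of 4.01, and there the 183 segments took 0.492% ± 0.0164 of all counts. The log2 ratio of KO over WT was 1.94 in MPP1, 0.23 in MPP4 and -0.95 in HSC. In CPM the MPP4 groups overlapped, with 622 to 744 in WT and 742 to 843 in KO. These sums carry no test. In bulk libraries, fewer cells of a type and less RNA per cell cannot be told apart. Each group's own leading segment was then left out, so in MPP1 and MPP4 the WT and KO sums lost different segments. In MPP1 these were Ighv6-3 in WT (10.8%) and Ighv7-1 in KO (72.5%). In MPP4 they were Ighv5-16 in WT (19.2%) and Ighv11-2 in KO (51.8%), so the KO sums lost the larger share. Over these unlike sets the log2 ratio was 0.25 in MPP1 and -0.52 in MPP4. In MPP2, where Ighv7-1 led both groups, it was 3.90.

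**Figure D1:**
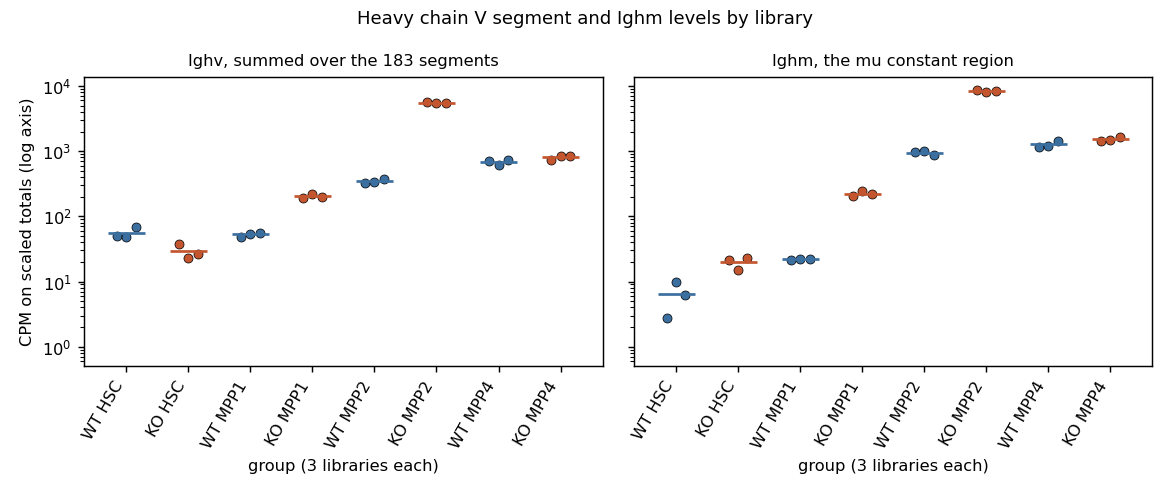
CPM on scaled totals (log axis) of the summed Ighv segments (left) and of Ighm (right) in each of the 24 libraries, with a line at the mean of each group of 3 and colour for the genotype label. KO MPP2 stands highest in both, at 5535 CPM for Ighv and 8337 CPM for Ighm. The HSC groups are lowest for Ighm, and KO HSC is lowest for Ighv.

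Ighm, the mu constant region to which V segments are first spliced, followed the same order of progenitor groups. Its mean level was 6.33 ± 3.63 CPM in WT HSC, 21.9 ± 0.322 in WT MPP1, 942 ± 73.2 in WT MPP2 and 1276 ± 142 in WT MPP4. In KO-labelled libraries it was 19.9 ± 4.48, 224 ± 17.4, 8337 ± 242 and 1526 ± 89.3. For each 100 Ighm counts there were 66.4 ± 0.594 Ighv counts in KO MPP2, 36.7 ± 5.49 in WT MPP2, 54.4 ± 4.97 in WT MPP4 and 53.0 ± 2.94 in KO MPP4, but 1135 ± 662 in WT HSC and 241 ± 14.3 in WT MPP1. In those last 2 groups the background estimate alone came to 23.1% and 25.9% of the Ighv counts, against 0.119% in KO MPP2. Ighm was higher in KO-labelled HSC (log2 1.63 ± 0.19), where summed Ighv counts were lower.

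Annotated V genes and V pseudogenes parted in the same groups. Pseudogenes cannot give a heavy chain, though they can be transcribed. Per kb of gene span, and summed over the 3 libraries, V genes had 904 counts and pseudogenes 3.04 in KO MPP2, a ratio of 297. The ratio was 36.4 in KO MPP4, 31.1 in WT MPP4, 14.2 in KO MPP1 and 6.71 in WT MPP2. It was lower in the other 3 groups, at 3.5 in KO HSC (4.38 against 1.25 counts per kb), 1.92 in WT HSC (9.29 against 4.83) and 1.42 in WT MPP1 (7.86 against 5.55). The receptor background was at 0.463 to 2.05 counts per kb over the 8 groups, below the pseudogenes in each of them. A pseudogene reached 10 counts in all 3 libraries of a group in 1 case, Ighv1-25 in WT MPP2 with 15, 28 and 16 counts.

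**Figure D2:**
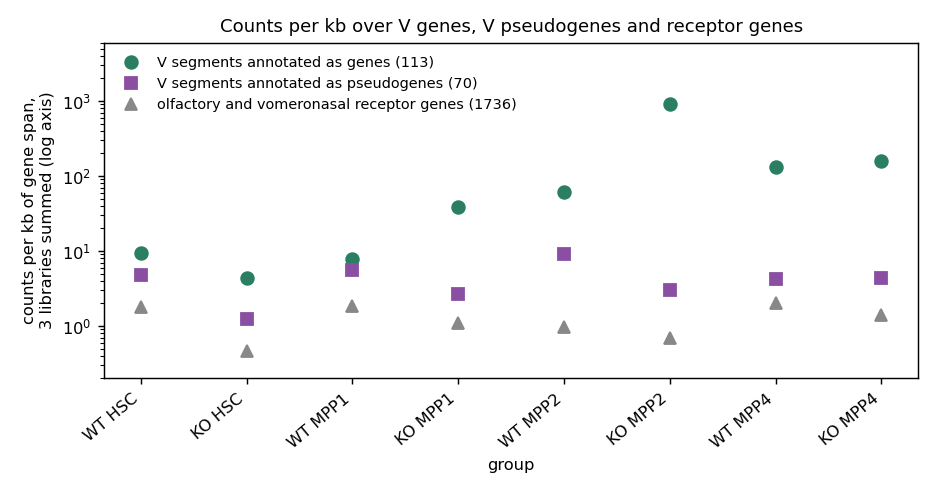
Counts per kb of gene span, summed over the 3 libraries of each group (log axis), for V segments annotated as genes, V segments annotated as pseudogenes, and olfactory and vomeronasal receptor genes. The V genes reach 904 in KO MPP2, while pseudogenes lie between 1.25 and 9.09 in every group.

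The counts were concentrated in few segments, and in the groups of high count, as in WT MPP1, the same segment led all 3 libraries. In WT MPP2 the leaders were Ighv7-1 with 23.9% of the Ighv counts, Ighv8-8 with 12.8% and Ighv11-2 with 9.72%. In WT MPP4 they were Ighv5-16 with 19.2%, Ighv2-2 with 12.8% and Ighv1-82 with 10.4%. In KO MPP2 Ighv7-1 held 29.6%, Ighv11-2 14.5% and Ighv3-5 12.8%, and per kb of span Ighv3-5 came second (1621 CPM per kb, against 3046 for Ighv7-1 and 1397 for Ighv11-2). In KO MPP1 Ighv7-1 alone held 72.5%, and in KO MPP4 Ighv11-2 held 51.8%, ahead of Ighv8-8 (11.8%) and Ighv1-15 (10.3%). The leader was the same in the 3 libraries of each of these 5 groups, with shares of 70.6 to 74.1% for Ighv7-1 in KO MPP1 and 50.6 to 53.0% for Ighv11-2 in KO MPP4. A shared leader was not particular to them. Ighv6-3 led all 3 WT MPP1 libraries, at 18.1, 7.81 and 7.54%. It also led KO HSC replicates 1 and 3 (45.0 and 24.1%), while Ighv2-6-8 led replicate 2 (20.9%). In WT HSC the libraries had 3 different leaders, Ighv8-4 (13.3%), Ighv6-3 (16.2%) and Ighv1-42 (11.5%). Ighv1-42 had 0, 0 and 28 counts there and Ighv8-4 had 24, 1 and 7.

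**Figure D3:**
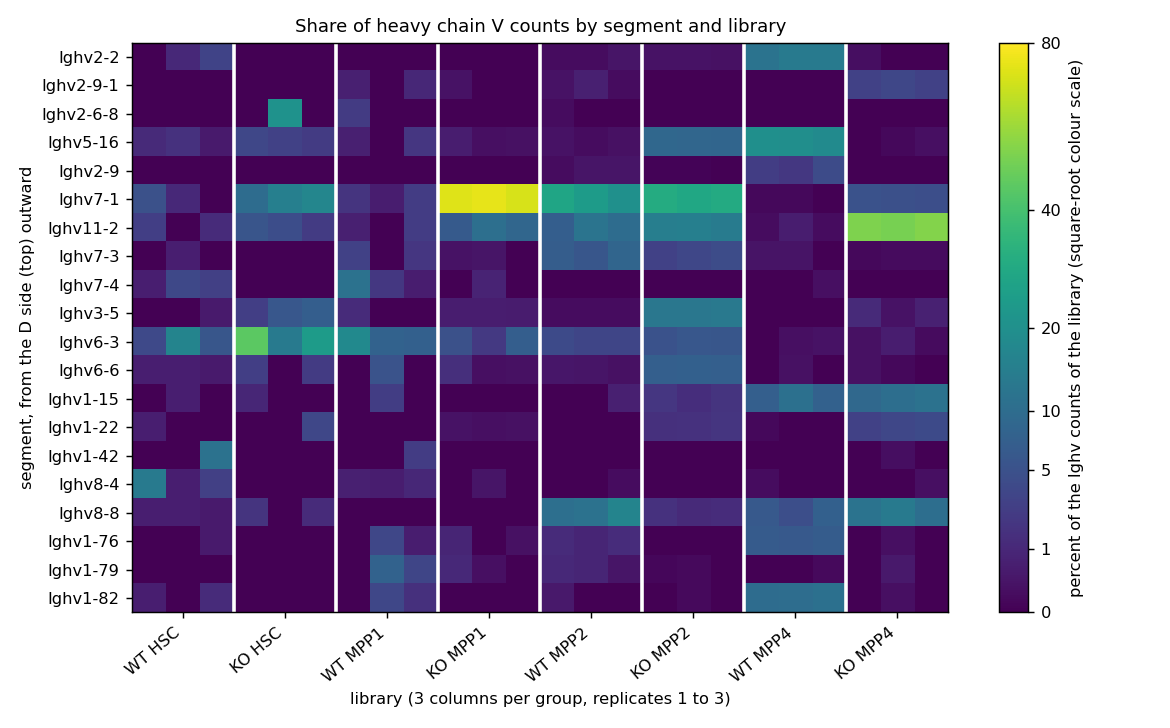
Percent of the Ighv counts of each library (colour, square-root scale) taken by 20 segments, listed from the D side outward; columns are the 24 libraries in groups of 3. The segments are the 3 highest in each group and 6 others described in the text. Ighv7-1 fills 70.6 to 74.1% of the KO MPP1 columns and Ighv11-2 50.6 to 53.0% of the KO MPP4 columns, while the HSC columns differ from each other.

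The effective number of segments (the inverse of the summed squared shares, equal to the number of segments if all were used alike) put a value on this. It was 19.4 ± 3.14 (SD, n = 3) in WT HSC, 26.6 ± 11.1 in WT MPP1, 10.2 ± 0.744 in WT MPP2 and 10.5 ± 0.407 in WT MPP4. With only the segments of at least 10 counts in some library it was 12.9 in WT HSC and 13.8 in WT MPP1. It was lower under each KO label, at 7.52 ± 2.68 in HSC, 1.87 ± 0.0856 in MPP1, 6.91 ± 0.238 in MPP2 and 3.31 ± 0.118 in MPP4, and the libraries of the 2 genotypes did not overlap in any population. KO MPP2 combined the most Ighv counts with fewer effective segments than WT MPP2. The number of segments with at least 10 counts in all 3 libraries went the other way there, 28 in KO MPP2 against 13 in WT MPP2. It was 15 in WT MPP4, 8 in KO MPP4, 3 in KO MPP1, 1 in each of WT MPP1 and KO HSC, and 0 in WT HSC. This number also depends on the total, which was 46326 Ighv counts in KO MPP2 and 3376 in WT MPP2.

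Libraries of a group resembled each other where counts were high. The overlap of usage, the sum over segments of the lower of 2 libraries' shares, was 74.7 to 96.0% (median 87.5%) over the 15 pairs within WT MPP2, WT MPP4, KO MPP1, KO MPP2 and KO MPP4. Between those groups it was 0.753 to 50.2% (median 23.1%, 90 pairs). Within the 3 groups of fewest counts it was 15.8 to 51.8% (median 26.2%, 9 pairs), a range that lies largely within the one between the others. The pairs of libraries from WT MPP2 and KO MPP2 overlapped by 45.0 to 50.2%, those from KO MPP1 and KO MPP2 by 44.5 to 46.8%, and those from WT MPP4 and KO MPP4 by 17.2 to 21.6%. The lowest overlap, 0.753 to 3.79%, lay between WT MPP4 and KO MPP1. These figures are descriptions over libraries of unequal Ighv count, with no test.

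**Figure D4:**
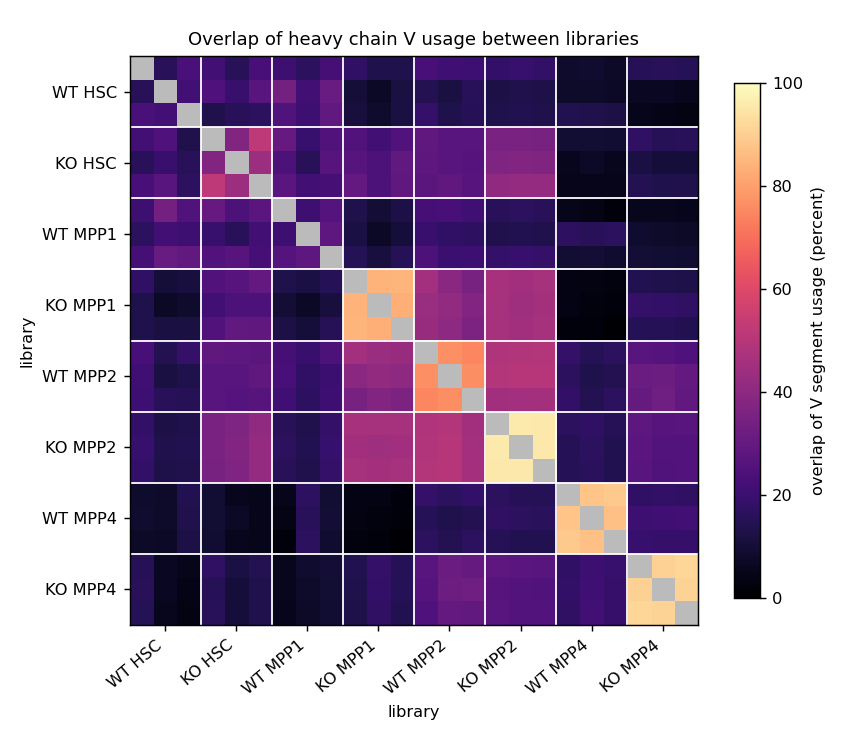
Overlap of V segment usage (percent, colour) for every pair of the 24 libraries, in blocks of 3 by group; the diagonal is left grey. The blocks of WT MPP2, WT MPP4, KO MPP1, KO MPP2 and KO MPP4 lie at 74.7 to 96.0%, and no pair of libraries from different groups passes 50.2%.

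The agreement within groups was close in size but not down to counting error. A segment reached 50 counts in at least 1 library of a group in 51 cases, and of these 36 were within 1.5-fold and 48 within 2-fold over the 3 libraries after scaling (median 1.31). The widest was Ighv1-75 in KO MPP2, with 12, 54 and 36 counts. The chi-square between the 3 libraries of a group was 4.45 to 19.1 per degree of freedom, where counting error alone gives 1. It rested on 2 segments in KO HSC to 37 in KO MPP2, those with enough expected counts. Over all genes with a summed count of at least 10, the chi-square between 2 libraries of a group was 4.19 to 9.71 per gene. That range, pooled over the 8 groups, holds the V segment value of every group but WT HSC. The 2 measures differ in the libraries and counts they use. Against the pairs of its own group, the V segment value lay within their range in WT MPP2 and KO MPP1. It lay above it in WT HSC and WT MPP1, and below it in WT MPP4, KO HSC, KO MPP2 and KO MPP4. WT HSC had the 19.1, over 7 segments, and there 12 of the 14 segments with at least 10 counts in some library had 0 in another.

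Few segments reached 10 counts in all 3 libraries of more than 1 group, a cut that depends on the Ighv total of a group. These totals ran from 259 counts in KO HSC to 46326 in KO MPP2. Passing in 1 group alone is therefore no measure of different usage. Of 42 segments with at least 10 counts in all 3 libraries of some group, 26 passed in 1 group, 10 in 2, 2 in 3, 3 in 4 (Ighv6-3, Ighv8-8 and Ighv11-2) and 1 in 5 (Ighv7-1). WT MPP4 and KO MPP2 shared the most, 8 segments of the 15 and 28 they had, namely Ighv1-15, Ighv1-18, Ighv1-26, Ighv1-55, Ighv2-2, Ighv5-16, Ighv8-8 and Ighv9-3. WT MPP4 and KO MPP4 shared 3 of 15 and 8, which are Ighv1-15, Ighv8-8 and Ighv9-3. WT MPP2 and KO MPP2 shared 6 of 13 and 28.

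Family and place in the locus also differed between the groups. The Ighv1 family, the largest with 92 members and the one on the far side of the locus, held 48.0% of the counts on average in WT MPP4 and 28.1% in WT MPP2, against 7.5% in KO MPP2 and 6.0% in KO MPP1. Ighv7, with 4 members, held 73.0% in KO MPP1, 33.3% in KO MPP2, 31.3% in WT MPP2 and 0.3% in WT MPP4. The family Ighv11, with 2 members, held 52.1% in KO MPP4, 14.5% in KO MPP2 and 0.3% in WT MPP4. Ordered from the D side, the 61 members nearest the D segments held 77.5% of the counts in KO MPP2 and 68.0% without the leading Ighv7-1, with 4.6% and 6.5% for the 61 farthest. In WT MPP2 the nearest 61 held 52.3%, and 37.3% without Ighv7-1, close to the 37.2% of the farthest 61. In KO MPP4 they held 68.6%, but 34.8% without Ighv11-2. Ighv5-2, a segment close to the D side that is known for early and frequent rearrangement, was the third in that order. It had 152, 172 and 127 counts in KO MPP2 and 1, 0 and 10 in WT MPP2.

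The main comparison was KO against WT within each population, fitted with edgeR's quasi-likelihood test over all 21964 genes with enough counts (46 of the 183 members, 43 V genes and 3 pseudogenes). Of the other members, 123 had a count but were not tested and 14 had none, and the highest count of an untested member was 41. The threshold for a call was an adjusted p of 0.05, and log2 differences are KO minus WT with the SE. Where a group had no count for a segment, the fold is a lower bound against 3 counts over the group, and where it had 1 to 3, it is a ratio with its exact 95% counting interval.

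In the libraries labelled MPP2, more V segments were higher than lower under the KO label. Of the 46 tested, 24 were higher and 5 lower, where 3.73% of all genes tested were higher and 4.17% lower. The filter on low counts bears on these numbers, since a segment present in KO MPP2 alone could enter only with a difference in its favour. KO MPP2 was the only group with at least 10 counts in all 3 libraries for 14 of the tested segments, of which 11 were among the 24, and WT MPP2 for 5, of which 4 were among the 5. The counts of higher and lower segments are therefore a description. Ighv7-1 had 291, 280 and 235 counts in WT and 4497, 4840 and 4375 in KO, without overlap (log2 4.33 ± 0.16, adjusted p = 3.29e-24). Ighv11-2 had 74, 139 and 115 counts in WT and 2175, 2507 and 2013 in KO (log2 4.59 ± 0.23, adjusted p = 1.11e-19). Both were already among the leaders in WT. Other segments were all but missing from WT. Ighv3-5 had 1 count in each WT library and 1870, 2149 and 1894 in KO, a ratio of 2319 (793 to 11249). Ighv5-16, a segment near the D side, had 2, 1 and 2 counts in WT and 1320, 1486 and 1229 in KO (log2 9.79 ± 0.36). Ighv6-6, of the J606 family, had 3, 3 and 2 in WT and 1092, 1261 and 1066 in KO (log2 8.91 ± 0.52). Ighv3-6 had no count in WT and 367, 437 and 400 in KO, at least 472-fold higher. Ighv1-22 had none in WT and 228, 280 and 275 in KO, at least 307-fold higher. Each of these 7 segments had its lowest KO library above its highest WT library. They were picked as leaders or as the largest called rises here, so this separation is in large part set by the choice.

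The 5 segments that fell in MPP2 were at lower counts. Ighv1-23 had 35, 40 and 50 counts in WT and 0, 3 and 0 in KO, 35.4-fold lower (11.8 to 174). It is 98.0% identical to Ighv1-15, so how reads were split between these copies is uncertain. Ighv9-4 had 17, 41 and 30 in WT and none in KO, at least 24.9-fold lower, and Ighv1-47, at 20, 25 and 25 in WT and none in KO, was at least 19.8-fold lower. Ighv1-25 was at least 16.7-fold lower and Ighv1-76, with 13, 10 and 15 counts in WT, at least 10.8-fold. When the background estimate was subtracted from every gene, 14 segments rose and 1 fell, and the calls of Ighv9-4, Ighv1-47, Ighv1-25 and Ighv1-23 were lost. That estimate is at most 0.432 counts for a segment in a library, so rounding left the counts of all members as they were, and the fitted common biological coefficient of variation over all genes went from 0.393 to 0.721. DESeq2 called 20 higher and 3 lower and gave 9 of the 46 no adjusted p. The call of Ighv1-47 was also lost in edgeR without any 1 of the 6 libraries, that of Ighv1-23 without any but KO replicate 2, and that of Ighv1-25 without WT replicate 2 or any KO library.

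In the libraries labelled MPP4 the sum hardly moved while the segments changed in both directions. Of 46 tested, 7 were higher and 14 lower, where 11.4% of all genes were higher and 6.47% lower. The same filter holds here: 2 of the 7 reached 10 counts in all 3 libraries in KO MPP4 alone, and 5 of the 14 in WT MPP4 alone. Ighv11-2 had 2, 12 and 2 counts in WT and 1392, 1432 and 1451 in KO (log2 8.01 ± 0.32, adjusted p = 2.25e-22). Ighv7-1 had 1, 1 and 0 counts in WT and 137, 135 and 125 in KO, a ratio of 195 (53.6 to 1614). Ighv1-22 had 1, 0 and 0 in WT and 81, 102 and 112 in KO, a ratio of 290 (51.6 to 11474), and Ighv1-74, with none in WT and 80, 63 and 55 in KO, was at least 64.8-fold higher. The WT leaders fell. Ighv5-16 had 472, 447 and 404 counts in WT and 0, 1 and 4 in KO (log2 -7.98 ± 0.37, adjusted p = 9.54e-21). Ighv2-2, of the Q52 family, had 275, 305 and 299 in WT and 3, 0 and 0 in KO, 299-fold lower (102 to 1450). Ighv1-82, another WT leader, had 240, 233 and 240 in WT and 0, 4 and 0 in KO (log2 -7.39 ± 1.04). Ighv1-53 and Ighv1-50, each with 21 to 34 counts in the WT libraries and none in KO, were at least 26.2-fold and 30.2-fold lower, and the call of Ighv1-50 was lost with background subtracted from every gene. Ighv8-8 moved least among the called leaders, from 150, 107 and 164 counts to 308, 376 and 287 (log2 1.14 ± 0.30, adjusted p = 0.00528). Ighv1-15, at 177, 250 and 169 counts in WT and 244, 295 and 312 in KO, was not called.

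A pair of close relatives stood in opposite places in MPP4. Ighv2-9 had 64, 49 and 92 counts in WT MPP4 and none in KO MPP4, at least 69.6-fold lower, and Ighv2-9-1 had none in WT MPP4 and 79, 102 and 82 in KO MPP4, at least 86.0-fold higher. Their transcripts are 92.8% identical over 362 bases. The last 300 bases of Ighv2-9 and Ighv2-9-1 are given here. Within this stretch the 17 differing bases, in capitals, are what a counting program can use to tell the pair apart.
Ighv2-9: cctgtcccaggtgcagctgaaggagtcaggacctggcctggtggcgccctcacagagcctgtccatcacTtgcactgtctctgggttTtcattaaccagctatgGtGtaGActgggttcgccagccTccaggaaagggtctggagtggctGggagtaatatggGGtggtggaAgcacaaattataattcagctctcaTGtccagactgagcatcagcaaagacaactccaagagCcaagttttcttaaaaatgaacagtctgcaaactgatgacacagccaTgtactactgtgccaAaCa
Ighv2-9-1: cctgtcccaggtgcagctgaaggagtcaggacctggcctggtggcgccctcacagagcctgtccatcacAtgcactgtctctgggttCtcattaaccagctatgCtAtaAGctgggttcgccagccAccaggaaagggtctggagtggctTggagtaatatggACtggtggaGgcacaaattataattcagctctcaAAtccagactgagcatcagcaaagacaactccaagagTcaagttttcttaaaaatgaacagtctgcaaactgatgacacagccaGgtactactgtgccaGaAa

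In MPP1, 2 of 46 segments were higher and 0 lower, where 8.71% of all genes were higher and 4.90% lower. At an unadjusted p below 0.05 there were 4 lower, and DESeq2 also called 2 higher and 0 lower, with 15 segments given no adjusted p. Ighv7-1 had 3, 1 and 5 counts in WT and 410, 581 and 474 in KO (log2 7.36 ± 0.27, adjusted p = 5.42e-24). Ighv11-2 had 1, 0 and 5 in WT and 36, 83 and 58 in KO (log2 4.86 ± 0.46, adjusted p = 9.56e-11). Ighv6-3, the third of KO MPP1, had 30, 15 and 15 counts in WT and 28, 17 and 48 in KO, which overlap. Without WT MPP1 replicate 1, 5 segments were called.

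In HSC, 2 of 46 segments were higher and 6 lower, where 18.3% of all genes were higher and 24.8% lower, so the members' shares lay below those of all genes. Ighv7-1 had 9, 2 and 0 counts in WT and 11, 10 and 14 in KO (log2 1.90 ± 0.43, adjusted p = 0.000504). Ighv3-5 had 0, 0 and 1 in WT and 3, 4 and 6 in KO, a ratio of 15.8 (2.38 to 672). The 6 lower segments had 8 to 14 counts in all over the 3 WT libraries. Ighv10-1 had 1, 10 and 0 in WT and none in KO, at least 3.01-fold lower. Ighv3-6 had 0, 0 and 14 in WT and 0, 1 and 0 in KO, and without WT replicate 3 its log2 difference turned from -3.17 to 1.96. No segment was called when only these 6 libraries were fitted or when background was subtracted, and 3 to 5 were called without KO replicate 1, 2 or 3 or WT replicate 3. The background share of all counts was 20.9 to 23.9% in WT HSC and 5.48 to 5.95% in KO HSC libraries, and the part of that gap in these differences was not tested.

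**Figure D5:**
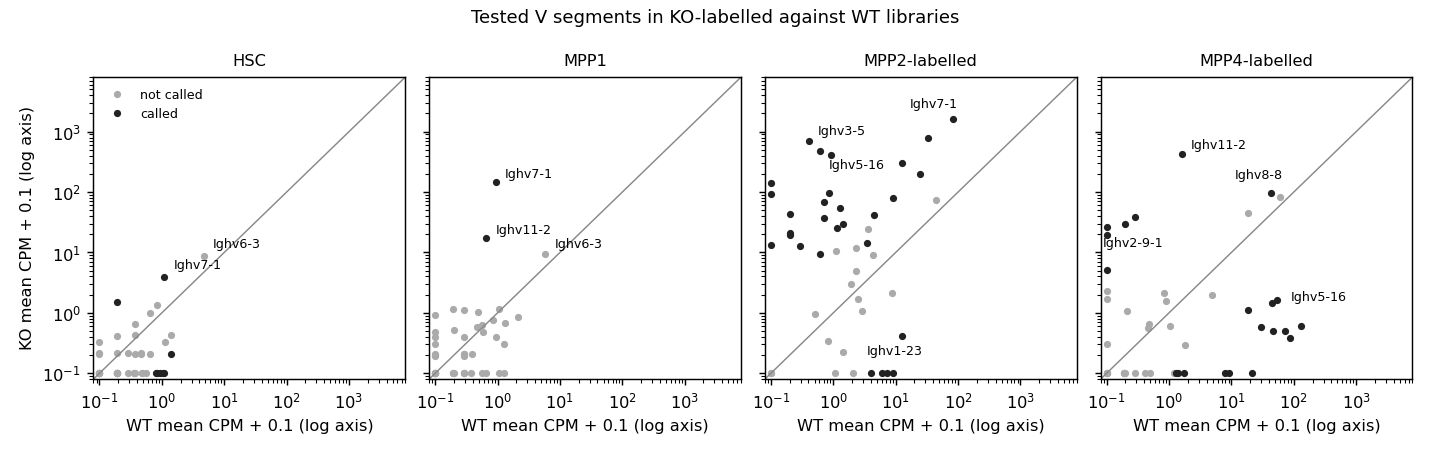
Mean CPM + 0.1 in KO-labelled (vertical) against WT libraries (horizontal), both on log axes, for the 46 tested segments in each population; black points were called at an adjusted p below 0.05 and the line marks equality. In MPP2 24 black points lie above the line and 5 below it, in MPP4 7 above and 14 below, and in MPP1 only Ighv7-1 and Ighv11-2 are black.

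The genotype difference itself differed between populations for 29 of the 46 segments (interaction of genotype and population, edgeR), where 17.7% of all genes passed. The filter on low counts bears on this number too, since a segment abundant in 1 group alone enters with a difference between groups. The smallest adjusted p belonged to Ighv5-16 (1.5e-26), which rose in MPP2 and fell in MPP4, then to Ighv2-2 (1.55e-09) and Ighv7-1 (2.42e-09). Ighv2-2 rose in MPP2, from 1, 1 and 3 counts to 26, 30 and 22 (log2 4.09 ± 0.76), and fell in MPP4. Ighv7-1 was higher under the KO label in all 4 populations, by unequal amounts.

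Against HSC of the same genotype, V segments were higher in the progenitors labelled MPP2 and MPP4. The 3 comparisons in each genotype share their HSC libraries. The filter on low counts bears on them as well. A segment present in 1 progenitor group alone could enter only with a difference in that group's favour. The counts of higher and lower segments against HSC are therefore a description. In WT MPP2, 18 of 46 were higher and 1 lower than in WT HSC, where 11.7% of all genes were higher and 7.37% lower. Ighv7-1 rose by a log2 of 6.29 ± 0.27 and Ighv11-2 by 5.43 ± 0.40. Ighv1-9, absent from WT HSC, had 21, 30 and 34 counts and was at least 31.5-fold higher, and Ighv7-3, with 1 count in HSC and 73, 66 and 99 in MPP2, was 265-fold higher (47.1 to 10501). The segment that fell was Ighv3-6, from the 14 counts of a single HSC library to none. In WT MPP4, 15 were higher and 1 lower, where 2.91% of all genes were higher and 7.43% lower. Ighv5-16 rose by 7.83 ± 0.36, Ighv1-9 was at least 159-fold and Ighv2-9 at least 74.7-fold higher. The segment that fell there was Ighv6-3, from 7, 30 and 14 counts to 0, 3 and 4 (log2 -2.66 ± 0.72). Between WT MPP1 and WT HSC edgeR called 0 of 46, where 1.97% of all genes were higher and 1.83% lower. At an unadjusted p below 0.05 there were 9 segments, 3 higher and 6 lower. DESeq2 called 1 and gave 33 no adjusted p, and edgeR called 1 or 2 when a WT HSC library was left out (2 without replicate 1 or 2, 1 without replicate 3).

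Within the KO label, 31 of 46 segments were higher in MPP2 than in HSC and 0 lower, where 10.7% of all genes were higher and 7.22% lower. Of these 31, 14 had a group with no count and 11 a group with 1 to 3 counts. The filter on low counts bears on the comparisons within the KO label as it does in WT. Ighv7-3 had no count in KO HSC and 446, 606 and 629 in KO MPP2, at least 603-fold higher, and Ighv11-2 rose by a log2 of 9.31 ± 0.34. Ighv5-2 was at least 162-fold higher. In KO MPP4, 13 were higher and 1 lower, where 17.6% of all genes were higher and 12.2% lower. Ighv2-9-1 was at least 77.4-fold higher, Ighv1-15 was 751-fold higher (134 to 29694), and Ighv6-3 fell from 49, 9 and 20 counts to 4, 15 and 2 (log2 -2.06 ± 0.55). In KO MPP1, 2 were higher and 0 lower, where 12.6% were higher and 7.49% lower, and they were Ighv7-1 (log2 5.23 ± 0.22) and Ighv11-2 (3.82 ± 0.42).

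The other genes of the pathway moved with the V segments only in part. Of 160 kappa light chain V segments, 33 were tested, and in MPP2 21 of them were higher and 2 lower under the KO label. In MPP4 5 were higher and 8 lower, in MPP1 3 and 0, and in HSC 1 and 0. Over all genes the shares higher and lower were 3.73% and 4.17% in MPP2, 11.4% and 6.47% in MPP4, 8.71% and 4.90% in MPP1, and 18.3% and 24.8% in HSC, and the lists below are to be read against these. The kappa counts of higher segments in MPP4 and MPP1 lay near those shares, and the filter bears on kappa segments as it does on heavy chain segments. Of the 8 constant region genes 3 rose and 1 fell in MPP2. Ighm rose by a log2 of 3.14 ± 0.11, Igha, the constant region of IgA, had 166, 137 and 134 counts in WT and 252, 459 and 318 in KO (1.45 ± 0.17), and Ighg2b rose from 7, 4 and 1 counts to 95, 154 and 71 (4.91 ± 1.01). Ighg3 fell from 211, 185 and 173 counts to 8, 48 and 9 (-2.97 ± 0.77, adjusted p = 0.00999). In MPP1 Ighm rose (3.35 ± 0.13) and Ighg1 fell, and in MPP4 none of the 8 passed, with Ighm at 0.25 ± 0.11 (adjusted p = 0.0912). Igha was high in both MPP4 groups, at 2243, 2390 and 2120 counts in WT and 1850, 1892 and 2043 in KO. Of 24 D and J segments, Ighj1 alone had enough counts to test and did not pass in any population, with 20, 12 and 13 counts in WT MPP2 and 17, 25 and 29 in KO MPP2.

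Recombination genes were mixed in MPP2. Rag1 and Rag2, the recombinase that cuts at V segments, were listed at 0 counts in all 24 libraries. Silent receptor genes had counts in every library, so 0 throughout may mean that these 2 genes were not counted. Their absence from the cells is not read from it. Of 12 genes for recombination and the pre-B-cell receptor 7 were tested, and 1 rose (Blnk, an adaptor of B-cell receptor signalling, 0.78 ± 0.22) and 1 fell (the kinase Syk, -0.37 ± 0.09) in MPP2. Dntt, which adds bases at V(D)J joins, had 1879, 1956 and 1743 counts in WT MPP2 and 1095, 1299 and 1088 in KO MPP2 (-0.45 ± 0.19, adjusted p = 0.151). It rose in MPP1 (2.27 ± 0.22) and MPP4 (1.30 ± 0.23) and fell in HSC (-2.03 ± 0.37), where 2 genes of the list rose and 3 fell. Of 7 end joining genes 0 passed in MPP2 by edgeR at the adjusted threshold, 1 rose in each of MPP1 and MPP4 and 2 in HSC. Of 12 B-lineage regulators 3 rose and 4 fell in MPP2. Pou2af1, a coactivator of immunoglobulin promoters, rose from 25, 33 and 23 counts to 162, 111 and 215 (2.85 ± 0.47), and Ikzf3 rose (1.75 ± 0.36), while Ebf1 (-1.46 ± 0.28) and Bach2 (-1.01 ± 0.14), which hold the B-cell program, fell. In HSC 2 rose and 8 fell.

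Some markers of antibody-secreting cells moved with the V segments in MPP2, and no mature B-cell marker tested rose there. Of 8 plasma cell markers 7 were tested, and 4 rose and 0 fell there. Jchain, the joining chain of secreted IgM and IgA, had 56, 33 and 70 counts in WT MPP2 and 302, 292 and 394 in KO MPP2 (2.87 ± 0.41). Xbp1 (1.31 ± 0.20), Derl3 (3.09 ± 0.63) and Irf4 (2.30 ± 0.65) rose too. Sdc1, at 33, 45 and 36 counts in WT MPP2 and 52, 43 and 11 in KO MPP2, was not called. Prdm1, at 25, 39 and 43 in WT MPP2 and 31, 97 and 27 in KO MPP2, was not called either. The 8 markers summed to 103 to 119 CPM in WT MPP2, 371 to 378 in KO MPP2, 128 to 156 in WT MPP4 and 177 to 201 in KO MPP4, and to 62.9 to 101 in the HSC and MPP1 groups. Jchain was at 164, 208 and 200 counts in WT MPP4 and 292, 241 and 277 in KO MPP4. Mzb1 was listed at 0 in every library and Tnfrsf17 was at 0, 5 and 0 in KO MPP2. Of 9 mature B markers 8 were tested and 0 rose in MPP2, while Bank1 fell. Their sum was 149 to 210 CPM in WT MPP2 and 186 to 222 in KO MPP2, and Ms4a1 was listed at 0 in every library. As with Rag1 and Rag2, no absence is read from the zeros of Mzb1 and Ms4a1. The 10 T and NK markers summed to 31.4 to 54.5 CPM in the 2 MPP2 groups, with Klrb1c at 0 in KO MPP2, and none was called there. Of 7 mature myeloid markers tested 0 passed in MPP2, and of 6 erythroid markers 3 fell.

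Markers of other cell types also moved in the other populations. In MPP1 3 of 7 plasma cell markers rose (Derl3, 3.82 ± 0.86; Jchain, 2.71 ± 0.69; Xbp1, 0.77 ± 0.20) and 0 fell, no mature B marker passed edgeR's test, 1 of 9 T and NK markers rose, 2 of 7 mature myeloid markers fell, and 4 of 6 erythroid markers fell. The erythroid markers summed to 504 to 527 CPM in WT MPP1 and 48.0 to 67.9 in KO MPP1, and the myeloid markers to 162 to 200 and 28.8 to 47.7. In MPP4 2 plasma cell markers rose (Derl3, 2.67 ± 0.65, and Xbp1, 1.04 ± 0.21), 1 mature B marker fell (Bank1) and 1 T and NK marker rose. There 3 myeloid markers rose, among them the granule enzyme genes Mpo (1.47 ± 0.12) and Elane (1.81 ± 0.36), with a list sum of 128 to 140 CPM in WT and 311 to 367 in KO, and 4 erythroid markers fell, with a sum of 589 to 657 CPM in WT and 223 to 279 in KO. In HSC 1 plasma cell marker rose (Xbp1, 1.13 ± 0.20) and 2 fell (Prdm1 and Sdc1). Xbp1 was thus higher under the KO label in all 4 populations, also in HSC, where summed Ighv counts were lower. There 2 mature B, 2 T and NK, 3 myeloid and 4 erythroid markers fell. The part of any other cell type in the V segment differences was not tested.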

How the data were processed

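Per the labels, total RNA of sorted bone marrow cells was extracted with the miRNeasy Micro Kit and made into libraries with NEBNext Ultra II reagents, with no strand setting stated. The authors deposited 1 table of raw counts, whole numbers per gene and library. The submitters' processing notes name build mm39, SAMtools 1.12 and DESeq2 without saying what each did. The aligner and counting program are not given in the sources used here. Depth and counting error limit all low segments, and reads without molecular identifiers are not independent molecules, so counting intervals cover counting error only.

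The members, lists, comparisons and alternatives were chosen with earlier results of these data known. Counts of 24 libraries were scaled by TMM and fitted in edgeR 4.0.16 (R 4.3.3) with 1 mean per group over 21964 genes passing filterByExpr (16 residual degrees of freedom), and p-values were adjusted by Benjamini-Hochberg over all of them in each of 11 comparisons. The code was tested on simulated data. Named segments were the 3 highest per group, up to 5 called in each direction (at least 10 counts in some library) for KO against WT, up to 2 for the other comparisons, and the 3 of smallest interaction p. From each list up to 4 genes of smallest p were named. Others (Ighv1-75, Rag1, Rag2, Mzb1, Ms4a1, Tnfrsf17, Klrb1c, Sdc1 and Prdm1 in MPP2, and genes given for a label check) were chosen after their values were seen. Alternatives were scaling by median-of-ratios, no filter, at least 5 CPM in 3 libraries, DESeq2 1.42.0, only the groups compared, the replicate block, each library left out, and background subtracted, rounded or, as an alternative chosen after seeing the data, unrounded. Background was the count per kb of 1736 olfactory and vomeronasal receptor genes in the library, times gene span. Spans (52073 genes, all 183 members), types, order and sequences came from GENCODE M21 on GRCm38, an earlier build than the counts, so no coordinates are given.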

Additional observations from a re-analysis of the deposited data

Results flagged for a closer look

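Of the 29 segments whose interaction of genotype and population passed edgeR's test, 12 that are named above were flagged. Their difference between KO-labelled and WT libraries had opposite signs in different populations or unequal sizes. The adjusted p was 1.5e-26 for Ighv5-16, 1.55e-09 for Ighv2-2, 2.42e-09 for Ighv7-1, 2.45e-08 for Ighv11-2, 6.18e-08 for Ighv3-6, 1.47e-07 for Ighv6-6, 5.98e-05 for Ighv2-9-1, 0.000117 for Ighv1-74, 0.00308 for Ighv3-5, 0.00567 for Ighv10-1, 0.0124 for Ighv1-76 and 0.0447 for Ighv1-53. The low-count filter bears on these values too, since a segment abundant in 1 group alone enters with a difference between groups. Ighv3-5, Ighv3-6, Ighv6-6 and Ighv10-1 reached 10 counts in all 3 libraries of KO MPP2 alone. Ighv2-9-1 and Ighv1-74 did so in KO MPP4 alone, and Ighv1-53 in WT MPP4 alone. Ighv5-16 had 5 counts over WT MPP2 and 4035 over KO MPP2, but 1323 over WT MPP4 and 5 over KO MPP4. Ighv3-6 and Ighv10-1 rose in MPP2. In HSC they were called lower from 14 and 11 counts over the 3 WT libraries, all or most of them in a single library. With a library left out, the log2 difference of Ighv3-6 in HSC ran from -5.14 to 1.96. No segment was called in HSC with only the compared libraries or with background subtracted, so the sign there is uncertain. Ighv1-76 fell in both MPP2 and MPP4.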

How the results depend on the processing

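The HSC count of 8 called segments became 0 with only the compared libraries, 0 with background subtracted (rounded or not), 5 with DESeq2, and 3 to 7 leaving out a library. Background subtraction also gave 15 (unrounded 16) in place of 29 for KO against WT in MPP2, 17 in place of 29 for the interaction, and 6 (unrounded 7) in place of 19 for WT MPP2 against WT HSC. It left all members' rounded counts unchanged, while the common biological coefficient of variation over all genes rose to 0.721. DESeq2 called 10 for WT MPP2 against WT HSC, with 15 segments given no adjusted p. With no filter 4 were called in MPP1 in place of 2, and 2 in WT MPP1 against WT HSC in place of 0, where DESeq2 gave 1. Leaving out a library gave 2 to 5 in MPP1 and 0 to 2 in WT MPP1 against WT HSC. KO MPP4 against KO HSC fell from 14 to 8 with only the compared libraries, where fewer libraries were fitted. The summed log2 ratio in MPP1, 1.94, was 2.31 with background subtracted. That in MPP4, 0.23, was 0.052 with median-of-ratios size factors and -0.52 without each group's own leading segment. Without those leaders, which differ between WT and KO in MPP1 and MPP4, it was 0.25 in MPP1 and 3.90 in MPP2. Those size factors moved the median log2 difference of all genes from -0.31 to -0.46 in HSC and from -0.08 to -0.24 in MPP4. Of single segments 1 reversed, Ighv3-6 in HSC, at 1.96 without WT HSC replicate 3 and -5.14 to 1.96 over all left-out libraries. Whether the replicate numbers pair the libraries is not known from the labels. Correlations of same-numbered deviations were -0.0168 to 0.0260 over 84 pairs, 0 of them over 0.1. A library correlated best with its own number, of the 3 in the other group, in 36 of 84. Such values cannot exclude a weak pairing. With the replicate block 5 segments were called in HSC, 2 in MPP1, 29 in MPP2, 20 in MPP4 and 27 for the interaction. Of the recomputed values for the main comparisons 182 stayed within the spread or, for counts of calls, within 1.5 times, 28 moved by more and 1 reversed. Of those for single segments and usage measures 341 kept their call or stayed within the spread, 42 lost the call, 13 moved and 1 reversed. The effective number of segments moved by more than its spread in 5 of 8 groups with only segments of at least 10 counts, and in 4 of 8 with shares per kb.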
